A study of Mus musculus with 29 samples.

Results

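Mast cells, basophils and immunoglobulin E (IgE) are the arms of allergy that act within minutes of meeting an allergen, and 9 genes of this system were followed in the lung methylome of mice with allergic airways disease (AAD). The genes were Fcer1a, Ms4a2 and Fcer1g (the chains of the high-affinity IgE receptor), Fcer2a (the low-affinity IgE receptor), Kit, Cpa3, Mcpt8, Gata2 and Hdc. The members were all windows that the methylation table names for one of these genes, which gave 64 of 260686 windows. Kit held 30 of them, Gata2 12, Hdc 9 and Cpa3 4, whereas Ms4a2, Fcer1g, Fcer2a and Mcpt8 had 2 each and Fcer1a had 1. A window is a stretch of genome with a set number of CpG sites (median 50 CpG dinucleotides), so a gene with sparse CpGs is covered by few, long windows. All 64 windows had a value in all 29 libraries and all 64 were tested.

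Lung DNA of BALB/c offspring, described as 13-week-old females, was read by whole-genome enzymatic methyl-sequencing (WGMS). Dams had received saline (Sham) or fine particulate matter (PM2.5, here PM) through the nose before mating, in gestation and until weaning, and each kind of offspring was then given ovalbumin (OVA, an egg protein used as allergen) or PBS, which made 7 Sham, 7 Sham-OVA and 7 PM libraries and 8 of PM-OVA. The study's methods describe sensitisation by injected OVA with an aluminium adjuvant for each offspring, with nebulised saline for those not challenged, so the unchallenged groups may share the sensitisation. The labels do not tie libraries to dams or litters, and p-values therefore measure the spread between libraries. Values are percent methylation (%DNAm) in whole lung, where a change of the cell mixture and a change of methylation within cells cannot be told apart, and where the enzymatic method reads 5-methylcytosine and 5-hydroxymethylcytosine together.

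In the high-affinity IgE receptor the alpha chain (Fcer1a) binds IgE, the beta chain (Ms4a2) amplifies the signal and the gamma chain (Fcer1g) carries the activating motif and also serves other Fc receptors of myeloid cells. Cross-linking of bound IgE makes mast cells and basophils release granules that hold proteases such as carboxypeptidase A3 (Cpa3) and, in basophils, mast cell protease 8 (Mcpt8), together with histamine made by histidine decarboxylase (Hdc). Kit is the receptor for stem cell factor, on which mast cells depend, and Gata2 is a transcription factor of blood progenitors, mast cells, basophils and endothelium. The study's lists of cell-type signature genes in lung place Kit and Gata2 under endothelial cells and Hdc under epithelial cells. Promoters dense in CpGs are as a rule unmethylated, whereas sparse CpGs of the genome are mostly methylated.

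The starts of these genes differed widely in CpG content, and the following stretches show both ends of that range, with each CpG in capitals. They are those of the 250 bases upstream of a RefSeq start (GRCm38.p6, gene strand) that lie in no annotated exon, for Gata2 (chr6:88193641-88193890, plus strand), Kit (chr5:75574737-75574915, plus strand), Fcer1g (chr1:171234366-171234599, minus strand) and Mcpt8 (chr14:56085274-56085447, minus strand).
Gata2 upstream: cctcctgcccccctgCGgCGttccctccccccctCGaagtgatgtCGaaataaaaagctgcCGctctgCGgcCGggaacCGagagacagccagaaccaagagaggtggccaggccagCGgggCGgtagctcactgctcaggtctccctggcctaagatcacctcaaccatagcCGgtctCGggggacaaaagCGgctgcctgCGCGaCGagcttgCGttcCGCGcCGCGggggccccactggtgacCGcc
Kit upstream: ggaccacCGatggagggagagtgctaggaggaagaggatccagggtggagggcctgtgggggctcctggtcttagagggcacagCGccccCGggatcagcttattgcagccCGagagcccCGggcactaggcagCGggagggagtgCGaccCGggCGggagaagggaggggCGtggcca
Fcer1g upstream: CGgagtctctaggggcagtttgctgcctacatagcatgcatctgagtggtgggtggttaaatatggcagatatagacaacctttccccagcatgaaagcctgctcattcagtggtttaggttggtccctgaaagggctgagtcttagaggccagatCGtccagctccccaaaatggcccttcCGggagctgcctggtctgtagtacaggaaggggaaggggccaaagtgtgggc
Mcpt8 upstream: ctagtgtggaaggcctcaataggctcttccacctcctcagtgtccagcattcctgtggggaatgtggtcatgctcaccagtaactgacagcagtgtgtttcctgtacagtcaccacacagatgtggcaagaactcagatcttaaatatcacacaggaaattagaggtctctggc
The Gata2 stretch held 22 CpGs in 250 bases and the Kit stretch 10 in 179, against 3 in 234 for Fcer1g and 0 in 174 for Mcpt8. Over the 300 bases around each RefSeq start, the median of 32851 promoters was 7 CpGs. Gata2 had 32 and 29 CpGs at its 2 starts, Kit had 20 and 21 at starts 4 bases apart, Fcer1g had 7, Fcer2a had 3 to 4, Cpa3 and Hdc had 3, Ms4a2 had 2 and Fcer1a had 1. The short motif that GATA factors bind (searched on both strands as AGATAA or AGATAG, and with a first T in place of the A) was found in 29.8% of all promoters. Among the members it was found 3 times at Ms4a2 and once each at Fcer1a, Cpa3, Hdc and the 2 inner starts of Fcer2a, and no match lay in the windows searched at Fcer1g, Kit, Mcpt8 and Gata2.

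The most CpG-dense run of 200 intronic bases is shown, with CpGs in capitals, for the Gata2 and Kit windows that rose most and for the Fcer1g window, which had the largest fall in Sham offspring. They lie at chr6:88204709-88204908 (plus strand), chr5:75596222-75596421 (plus strand) and chr1:171233556-171233755 (minus strand) of GRCm38.
Gata2 window 11: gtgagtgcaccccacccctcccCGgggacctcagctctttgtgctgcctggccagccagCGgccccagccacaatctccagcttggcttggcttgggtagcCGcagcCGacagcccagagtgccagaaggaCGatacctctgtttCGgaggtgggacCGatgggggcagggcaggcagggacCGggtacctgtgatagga
Kit window 9: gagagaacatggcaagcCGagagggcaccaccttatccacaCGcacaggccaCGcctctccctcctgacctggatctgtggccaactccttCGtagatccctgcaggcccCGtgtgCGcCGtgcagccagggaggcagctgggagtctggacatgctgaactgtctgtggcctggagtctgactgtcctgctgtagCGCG
Fcer1g window 1: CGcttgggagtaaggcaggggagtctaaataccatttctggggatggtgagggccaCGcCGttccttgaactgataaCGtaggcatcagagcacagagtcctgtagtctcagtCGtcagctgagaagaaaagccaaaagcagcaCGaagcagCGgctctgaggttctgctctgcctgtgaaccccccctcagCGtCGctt
These runs held 8, 9 and 9 CpGs respectively. Windows are numbered along each gene from its start.

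Values were present in 258952 to 260135 windows of each library, and the depth behind a percentage is unknown here because the table has no read counts. Sham replicate 1 stood apart from the other 28 libraries, with a value in 1224 of 1230 Y chromosome windows against 29 to 46 in the others, which goes against the label of female offspring. It was kept, and its omission changed the calls of 4 member windows for OVA in Sham, which are Ms4a2 window 1 and Kit windows 2, 5 and 14. Values without it are given beside the leading windows, the gene means and the lists. Expression was not analysed here, so the tissue and its cell types could not be checked against marker RNA.

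In Sham lung the members spanned nearly the whole scale, from 0.173% in a Kit window to 92.4% in another window of the same gene. Of the 64 windows, 10 lay under 10% (15.6%, against 6.91% of all tested windows), and these were 3 windows of Kit and 7 of Gata2. At the other end, 20 windows were over 80%. Ordered by the window that holds the annotated start, the Sham means were 0.310% ± 0.176 (SD, n = 7) for Kit, 3.40% ± 1.17 for Gata2, 61.2% ± 1.51 for Hdc, 62.0% ± 2.40 for Fcer1g, 69.4% ± 0.889 for Fcer1a, 73.9% ± 0.901 for Fcer2a, 78.6% ± 1.91 for Ms4a2, 79.4% ± 1.65 for Cpa3 and 79.8% ± 0.772 for Mcpt8. Hdc and Fcer1g differed by less than their spread, as did Ms4a2, Cpa3 and Mcpt8. The start windows of the receptor and protease genes were long (the Fcer1a window spans 11604 bp with 4.31 CpGs per kb, where the median window has 10.5), and their values average promoter, gene body and flank.

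After OVA some members gained methylation and others lost it. Over the 64 windows the share of gains was above that of all windows and the share of losses near it. All gains called without centring of the libraries lay in Gata2 and Kit, which hold 12 and 30 of these windows. The members were chosen with earlier results of these data known. Most calls at Gata2 and Kit were gains, by up to 14.9 points in a window, while the start of Fcer1g, the granule proteases Cpa3 and Mcpt8, and Hdc lost methylation, with a largest difference of -8.48 points. In Sham offspring 18 of the 64 windows rose (28.1%, background 13.3% of all 259167 tested windows) and 13 fell (20.3%, background 22.3%). In PM offspring 16 rose (25.0%, background 9.26%) and 21 fell (32.8%, background 34.8%), each at an adjusted p under 0.05 in limma's moderated test. Counted by windows, the losses are therefore no result about the members as a group. Kit and Gata2 weigh most in that count. By gene means, 6 of the 9 genes were lower in Sham (background 25.7%) and 7 in PM (background 45.3%). Differentially methylated regions (DMRs), which also had to differ by at least 10 percentage points, numbered 2 in each kind of offspring, and all were gains (background 0.479% in Sham and 0.263% in PM), with 0 losses (background 0.296% and 0.321%). With a minimum of 5 points the Sham count was 10 gains (background 3.35%) and 4 losses (background 2.6%), and the PM count was 9 gains (background 2.06%) and 4 losses (background 3.83%). At an adjusted p under 1e-06 and 10 points, 1 gain (background 0.173%) and 0 losses (background 0.225%) were left in Sham, with 0 gains (background 0.0884%) and 0 losses (background 0.266%) in PM. The members' median difference was 0.293 points after OVA in Sham offspring and -0.295 points in those of PM dams, against -0.414 and -1.03 points over all windows.

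The counts of gains against losses depended on a shift shared by all windows. After the median deviation of all windows was subtracted from each library, 21 windows rose (32.8%, background 18.5%) and 12 fell (18.8%, background 18.4%) in Sham offspring, and 27 rose (42.2%, background 21.8%) and 17 fell (26.6%, background 20.4%) in PM offspring, while the share of gains among all windows past the threshold moved from 37.3% to 50.2% and from 21% to 51.6%. The same number of points is subtracted at every window of a library, so windows near 0% can become gains by construction. Of the 10 member windows under 10%, gains went from 4 to 6 in Sham and from 3 to 9 in PM, and among the other 54 windows from 14 to 15 and from 13 to 18. At Gata2 the added gains were all in windows under 10% and are not read as changes, while its 5 other windows had 4 gains with and without centring. Kit had 10 gains in its 27 windows over 10% in Sham with and without centring, and 9 without and 12 with it in PM, while its losses went from 2 to 1 in Sham and from 5 to 2 in PM. Without Sham replicate 1, 17 windows rose, 14 fell and 3 were DMRs, and 0 windows called with it changed sign. Sham and PM contrasts share no library.

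**Figure D1:**
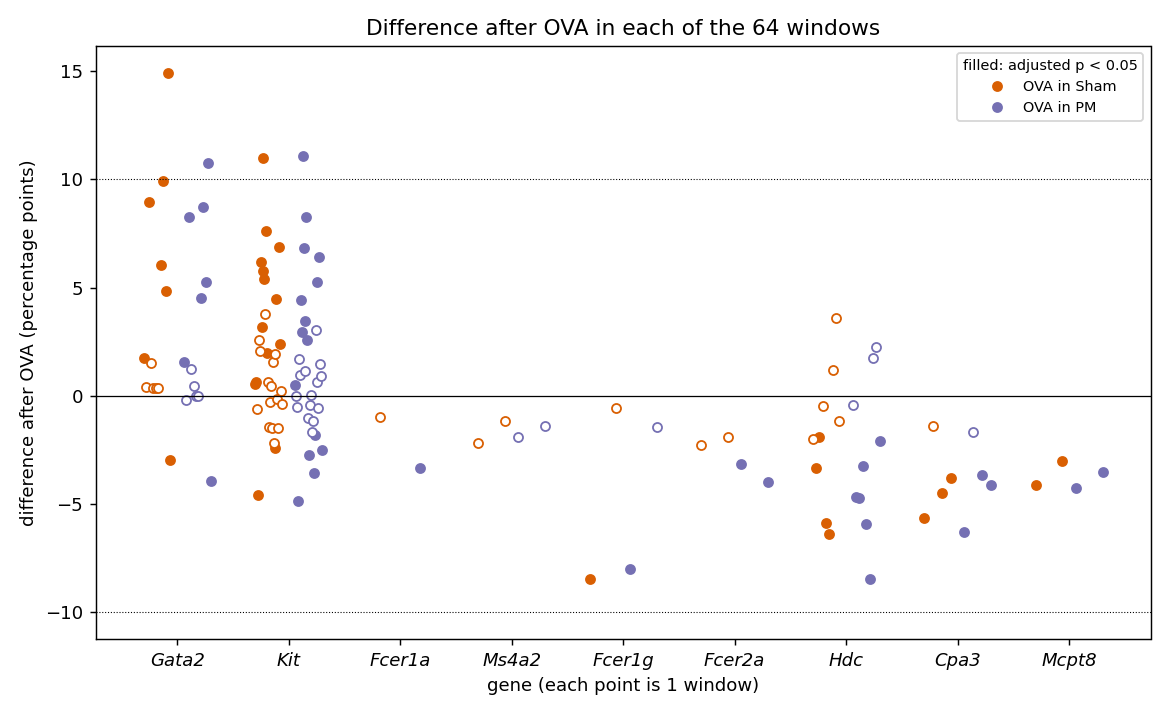
Difference in percent methylation after OVA (OVA mean minus unchallenged mean, percentage points) for each of the 64 windows, by gene, in offspring of Sham (orange) and PM dams (purple), with filled points at an adjusted p under 0.05 and dotted lines at 10 points. Without centring of the libraries, Gata2 and Kit hold all filled points above 0 in both kinds of offspring, and the lowest points belong to Fcer1g and Hdc.

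Gata2 gained methylation at windows on both sides of its unmethylated inner start. Of its 12 windows, 6 rose and 1 fell in Sham offspring and again 6 rose and 1 fell in PM offspring, while windows 2 and 4 to 7 passed in neither. Window 11 (chr6:88204654-88206822, 2169 bp over exons 5 to 6 and intron 5, of which 1331 bp are untranslated) changed most, and its intronic run is the first of those printed above. Methylation there ranged from 32.0 to 43.6% in Sham (median 35.5%) and from 44.9 to 55.0% in Sham-OVA (median 52.4%). In PM libraries it ranged from 34.1 to 44.0% (median 37.3%) and in PM-OVA from 44.9 to 55.5% (median 47.9%). The unchallenged and challenged libraries did not overlap in either kind of offspring. The rise was 14.9 ± 2.02 points (SE, log2 ratio 0.87, adjusted p = 7.83e-07) in Sham and 10.8 ± 1.84 points (log2 ratio 0.63, adjusted p = 2.82e-05) in PM. Without Sham replicate 1 the rise in Sham was 14.8 points. In PM it dropped under the DMR minimum without PM-OVA replicate 1 (9.80 points) and without the 2 PM-OVA libraries whose names carry Rel (9.97 points). The interaction, which asks whether the OVA difference depended on the dam, was -4.15 ± 2.73 points for this window (adjusted p = 0.735).

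Window 9 of Gata2 (exons 3 to 4 and introns 3 to 4) stood close to the DMR minimum. It ranged from 26.8 to 31.9% in Sham (median 30.2%), from 34.8 to 43.7% in Sham-OVA (39.7%), from 26.1 to 38.8% in PM (30.05%) and from 37.2 to 42.5% in PM-OVA (39.4%). The Sham groups did not overlap, whereas the highest PM library lay above the lowest PM-OVA library. The rise was 9.92 ± 1.32 points in Sham (adjusted p = 8.76e-06) and 8.71 ± 1.72 points in PM (adjusted p = 2.06e-05). Leaving out Sham replicate 1, 3 or 4 or Sham-OVA replicate 4, 6 or 7 took the Sham difference to between 10.04 and 10.7 points, and leaving out PM replicate 4 took the PM difference to 10.02 points.

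The CpG-dense starts of Gata2 moved little in absolute terms. Window 1, which holds the annotated start, was 1.92 to 5.43% in Sham (median 3.37%), 3.84 to 6.21% in Sham-OVA (5.32%), 1.99 to 4.09% in PM (3.70%) and 4.52 to 6.26% in PM-OVA (4.69%). It rose by 1.77 ± 0.547 points in Sham, where the groups overlapped, and by 1.55 ± 0.348 points in PM, where they did not (adjusted p = 0.00275 and 0.00558). The windows around the inner start (windows 5 to 7, 57.1 to 66.6 CpGs per kb) stayed between 0.734 and 1.58% in all group means, and none passed the test. Windows 3 and 8, on either side of these unmethylated stretches and singled out after their values were seen, rose by 8.95 and 6.06 points in Sham (adjusted p = 8.76e-05 and 2.17e-05) and, in PM offspring, by 8.26 and 4.53 points (adjusted p = 0.000171 and 6.39e-05). Only window 12, which runs from the last exon into the 3′ flank and was the one highly methylated window of the gene, fell, with differences of -2.98 points in Sham (adjusted p = 0.0192) and -3.92 in PM (adjusted p = 0.00119).

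**Figure D2:**
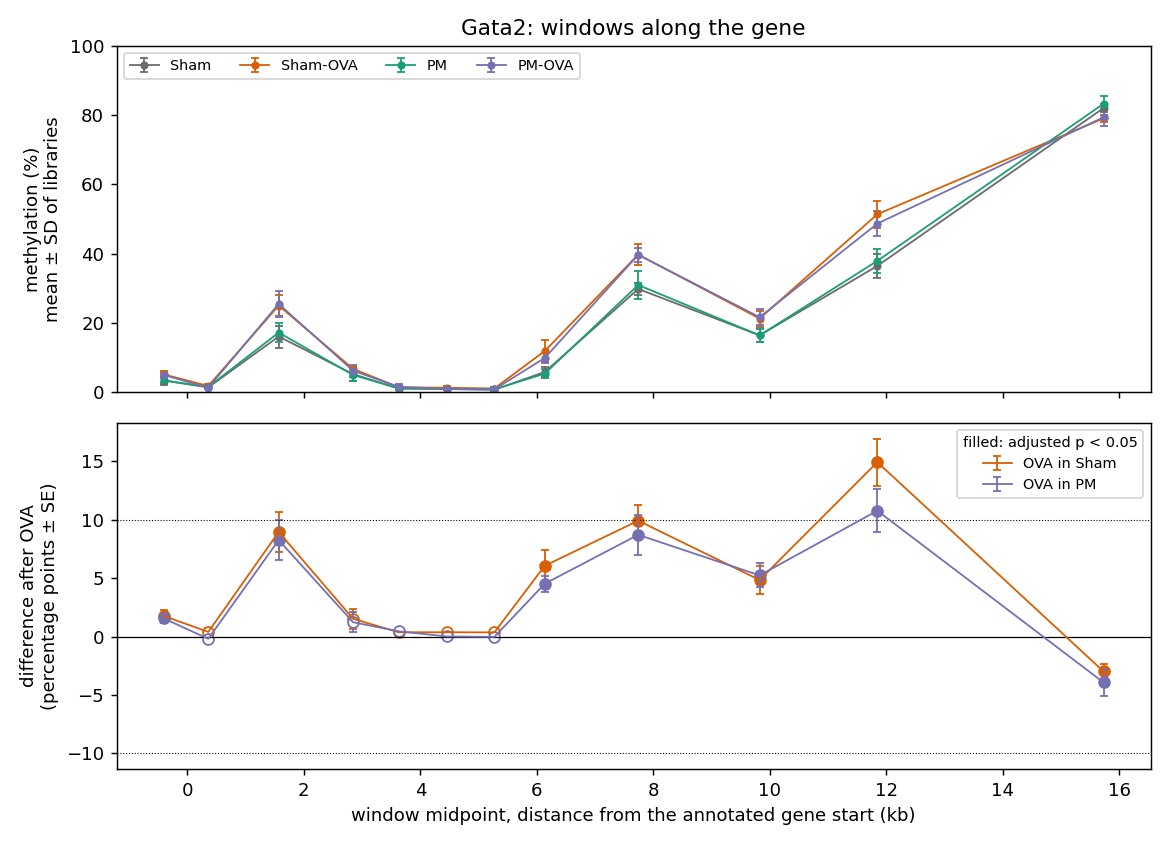
Gata2 windows by distance of the window midpoint from the annotated gene start (kb). The upper panel gives percent methylation (mean ± SD of 7 or 8 libraries per group) and the lower panel the difference after OVA (percentage points ± SE, filled at an adjusted p under 0.05, dotted lines at 10 points). The OVA means lie above the unchallenged means at windows 3 and 8 to 11, differ little at the nearly unmethylated windows 5 to 7, and window 11 reaches 14.9 points in Sham and 10.8 in PM, while the last window falls.

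Immediately upstream of Gata2, a window that the table names for the gene Gm38708 (chr6:88190625-88192979) moved further than any member, and it was singled out after its values were seen. It ranged from 25.1 to 29.8% in Sham (median 28.7%) and from 48.4 to 58.8% in Sham-OVA (median 51.7%). In PM it ranged from 25.9 to 41.5% (median 33.8%) and in PM-OVA from 41.0 to 55.3% (median 48.4%). The Sham groups were far apart and the PM groups overlapped slightly, with rises of 24.7 points (adjusted p = 2.96e-09) and 14.2 points (adjusted p = 2.89e-06). Without Sham replicate 1 the Sham difference was 24.4 points. The interaction of -10.5 points did not pass the test (adjusted p = 0.551).

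Kit, the largest of the genes, gained methylation at windows along its body, intron 1 included. Of its 30 windows, 12 rose and 2 fell in Sham offspring, and 10 rose and 5 fell in PM offspring. Among the 10 windows that lie wholly inside intron 1, 6 rose and 1 fell in Sham (median difference 2.90 points) and 5 rose and 1 fell in PM (2.34 points), whereas among the other 20 the counts were 6 and 1 (0.495 points) and 5 and 4 (0.269 points). This division by intron was made after the values were seen and was not tested. It also depended on centring. With centred libraries Kit had 12 gains and 1 loss in Sham, and 14 gains and 2 losses in PM. Of these gains, 2 in each kind of offspring were in windows under 10%. The intron 1 loss, at window 4, passed in neither, and not all of the 4 PM losses outside intron 1 were kept.

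The Kit DMR was window 9 (chr5:75594984-75597275), which lies wholly in intron 1 with its midpoint 21.2 kb from the start, and whose densest run is printed above. It ranged from 56.1 to 60.5% in Sham (median 58.7%) and from 64.1 to 75.1% in Sham-OVA (69.7%), without overlap. In PM it ranged from 51.0 to 64.4% (58.4%) and in PM-OVA from 63.8 to 73.7% (69.6%), with the highest PM library just above the lowest PM-OVA library. The rise was 11 ± 1.45 points in Sham (log2 ratio 0.68, adjusted p = 1.42e-05) and 11.1 ± 1.96 points in PM (log2 ratio 0.69, adjusted p = 5.76e-06). Leaving out Sham replicate 1 gave 11.2 points, and leaving out PM replicate 5, the lowest PM library, gave 9.81 points in PM. The interaction was 0.0736 ± 2.44 points (adjusted p = 0.997).

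Near its start Kit was close to unmethylated. Window 1, which holds the start and exon 1, was 0.158 to 0.665% in Sham (median 0.263%), 0.318 to 1.31% in Sham-OVA (0.784%), 0.253 to 0.806% in PM (0.345%) and 0.565 to 1.68% in PM-OVA (0.952%). The groups overlapped, and the rises of 0.556 and 0.513 points passed on the log scale (adjusted p = 0.00209 and 0.00455) but not when percentages were fitted directly (adjusted p = 0.122 and 0.125). The next window with intermediate methylation, window 4, fell, with differences of -4.60 points in Sham (adjusted p = 0.0363) and -4.86 in PM (adjusted p = 0.0193), and this call was lost in Sham without any one of Sham replicates 2, 3 and 7 or Sham-OVA replicates 2 and 6, and in PM without PM replicate 4. With centred libraries it passed in neither, at -4.20 points in Sham (adjusted p = 0.0509) and -3.88 in PM (adjusted p = 0.0582). Windows 13 (exon 3) and 27 (exon 17), named after their values were seen, rose by 7.64 and 6.89 points in Sham (adjusted p = 4.16e-05 and 2.22e-05) and by 8.27 and 6.41 points in PM (adjusted p = 8.88e-06 and 2.26e-05).

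**Figure D3:**
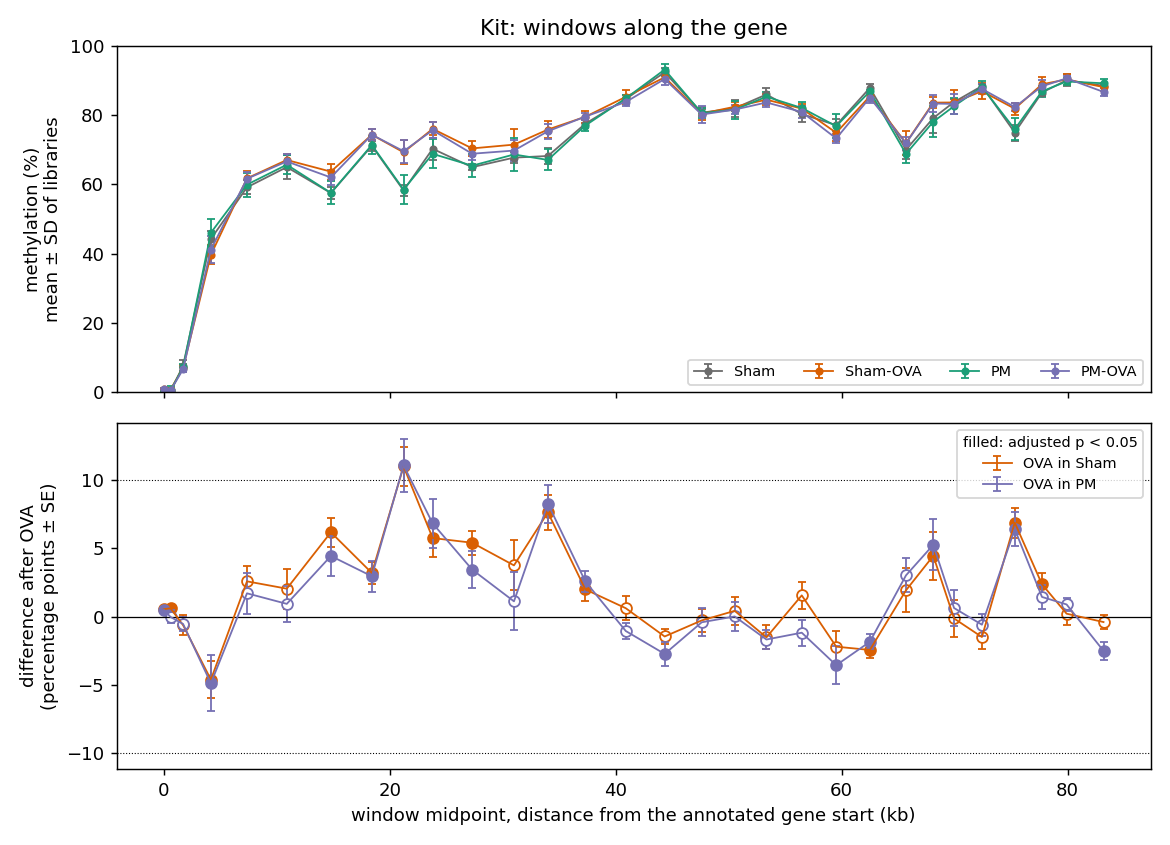
Kit windows by distance of the window midpoint from the annotated gene start (kb). The upper panel gives percent methylation (mean ± SD of 7 or 8 libraries per group), near 0 at the start and 92.4% at the highest window in Sham, and the lower panel the difference after OVA (percentage points ± SE, filled at an adjusted p under 0.05, dotted lines at 10 points), which peaks at window 9 with 11 points in Sham and 11.1 in PM.

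Of the 3 chains of the high-affinity IgE receptor, 1 had a window that fell in both kinds of offspring. Fcer1g, the gamma chain, lost methylation at its start, in window 1 (chr1:171231857-171235003, which holds the upstream and intronic runs printed above and exon 1). It ranged from 58.6 to 65.3% in Sham (median 61.7%) and from 47.9 to 57.1% in Sham-OVA (53.6%), and from 58.9 to 64.7% in PM (60.9%) and 48.6 to 56.4% in PM-OVA (53.6%). Challenged and unchallenged libraries did not overlap. The window fell, with differences of -8.48 ± 1.41 points in Sham (adjusted p = 1.36e-05) and -8.00 ± 1.20 in PM (adjusted p = 1.38e-05), and without Sham replicate 1 the difference was -8.72 points. Window 2, over exons 2 to 5, differed by -0.547 points in Sham and -1.42 points in PM and did not pass the test (adjusted p = 0.638 and 0.142).

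Fcer1a, the IgE-binding alpha chain, was covered by a window of its own that spans the whole gene and its flanks. It ranged from 68.1 to 70.99% in Sham (median 69.4%), from 66.6 to 70.7% in Sham-OVA (68.4%), from 69.8 to 73.0% in PM (71.6%) and from 66.4 to 69.98% in PM-OVA (68.4%). All groups overlapped with their challenged counterpart. The difference was -0.957 ± 0.641 points in Sham (adjusted p = 0.290), whereas in PM the window fell by 3.32 points (SE 0.544, adjusted p = 0.000181), with 8 of 8 PM-OVA libraries below the PM mean. That these effects differ was not shown, as the interaction was -2.36 ± 0.841 points with an adjusted p of 0.618. The PM group itself was 2.11 ± 0.503 points above Sham without OVA, which also did not pass (adjusted p = 0.805).

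For Ms4a2, the beta chain, neither window passed the test in either kind of offspring. Window 1, with the start, ranged from 75.4 to 80.8% in Sham (median 79.0%), from 74.1 to 79.6% in Sham-OVA (75.1%), from 75.3 to 78.6% in PM (77.9%) and from 73.4 to 79.96% in PM-OVA (74.8%), and the groups overlapped. Its differences were -2.18 ± 1.12 points in Sham (adjusted p = 0.0834) and -1.92 ± 0.836 points in PM (adjusted p = 0.117). The window passed in Sham without Sham replicate 1 or without Sham-OVA replicate 7 (adjusted p = 0.0322 and 0.0306), and in PM without PM-OVA replicate 5 (adjusted p = 0.0257). Window 2 differed by -1.16 points in Sham (adjusted p = 0.179) and by -1.41 ± 0.420 points in PM (adjusted p = 0.0784). With percentages fitted directly the latter passed (adjusted p = 0.0337), while with centred libraries it was -0.429 points (adjusted p = 0.602) and window 1 in PM was -0.943 points (adjusted p = 0.492).

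Fcer2a, the low-affinity IgE receptor CD23 that B cells carry, fell at 2 of 2 windows in PM offspring, while neither window passed in Sham offspring, where the mean of the gene did (adjusted p = 0.0202). Window 1, with the start, ranged from 72.5 to 74.8% in Sham (median 74.1%), from 66.95 to 74.9% in Sham-OVA (71.7%), from 72.8 to 75.8% in PM (74.9%) and from 67.9 to 73.7% in PM-OVA (71.4%), and the groups overlapped. The differences were -2.25 ± 1.07 points in Sham (adjusted p = 0.0655) and -3.15 ± 0.771 points in PM (adjusted p = 0.00591), and the Sham value passed without Sham-OVA replicate 2 or 7 (adjusted p = 0.0226 and 0.0257). Window 2 differed by -1.88 ± 0.929 points in Sham (adjusted p = 0.137) and by -3.99 ± 1.01 points in PM (adjusted p = 0.0013), with interactions of -0.901 and -2.11 points for the 2 windows that did not pass (adjusted p = 0.887 and 0.744). A further window of the gene is named Trappc5 in the table and was not counted.

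The granule proteases lost methylation in both kinds of offspring. Cpa3 fell in 3 of 4 windows in each. Window 1, which runs from upstream of the start to intron 3, ranged from 77.4 to 81.7% in Sham (median 79.1%) and from 70.96 to 76.5% in Sham-OVA (73.6%), and from 76.9 to 81.4% in PM (79.3%) and 70.1 to 75.4% in PM-OVA (72.6%). The groups were apart in both, and it fell, with differences of -5.63 ± 1.03 and -6.30 ± 0.836 points and adjusted p-values of 3.1e-05 and 3.96e-06. The smallest p of the gene was at window 4, which ranged from 84.6 to 86.5% in Sham (median 85.5%), from 79.9 to 83.7% in Sham-OVA (81.7%), from 84.5 to 86.8% in PM (85.3%) and from 79.3 to 82.6% in PM-OVA (81.3%). It fell without overlap, with differences of -3.80 points in Sham (adjusted p = 3.54e-06) and -4.13 in PM (adjusted p = 4.89e-07). That window holds the end of the last exon and the 3′ flank of the gene and is 91.5% repeat sequence.

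Mcpt8, the basophil protease, fell in the 2 windows named for it in both kinds of offspring. The gene is 3108 bp long and the windows 7273 and 10364 bp, so both windows lie mostly outside it. Window 2 also overlaps Mir6949. Window 1 (exons 1 to 3 with the start) ranged from 78.8 to 81.1% in Sham (median 79.6%) and from 72.6 to 77.3% in Sham-OVA (76.4%), and from 79.5 to 81.9% in PM (80.4%) and 73.8 to 79.6% in PM-OVA (76.4%). The Sham groups were apart and the PM groups overlapped by a single PM-OVA library. The differences were -4.14 ± 0.670 points in Sham (adjusted p = 0.000116) and -4.27 ± 0.771 in PM (adjusted p = 3.26e-05). Without Sham replicate 1 the Sham difference was -4.20 points at this window and -5.96 points at Cpa3 window 1. Window 2 of Mcpt8 fell as well, with -2.99 points in Sham (adjusted p = 0.00273) and -3.52 in PM (adjusted p = 0.000341).

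Hdc, the enzyme that makes histamine, lost methylation at windows 2, 3, 5 and 6 in both kinds of offspring, while window 1 with its start did not pass the test. Of its 9 windows 4 fell in Sham and 6 in PM offspring, and 0 rose, although after centring of the libraries 1 rose in Sham and 2 in PM. The PM losses also include window 4 and window 9 at the 3′ end, where the difference of -2.09 points (adjusted p = 0.0317) did not pass in 8 of the 29 fits without 1 library (PM replicates 1, 2, 3 and 5 and PM-OVA replicates 2, 4, 5 and 8, adjusted p up to 0.0699) and was -1.11 points with centred libraries (adjusted p = 0.204). Window 6 (chr2:126600373-126603017, exons 7 to 9) had the smallest p, with 72.3 to 77.1% in Sham (median 73.6%), 65.5 to 69.8% in Sham-OVA (67.4%), 72.1 to 78.4% in PM (75.1%) and 65.1 to 69.8% in PM-OVA (66.4%). The groups did not overlap. It fell, with differences of -6.40 ± 0.817 points in Sham (log2 ratio -0.44, adjusted p = 1.33e-05) and -8.46 ± 1.04 in PM (log2 ratio -0.58, adjusted p = 9.55e-08), and the Sham value was -6.66 points without Sham replicate 1. Window 1, with the start, was 59.8 to 63.8% in Sham (median 60.5%), 56.1 to 62.5% in Sham-OVA (59.4%), 56.7 to 62.0% in PM (59.5%) and 57.1 to 62.7% in PM-OVA (58.4%). These groups overlapped, and the differences of -1.97 ± 1.14 and -0.437 ± 0.939 points did not pass (adjusted p = 0.156 and 0.764), the latter turning to 0.543 points when libraries were centred.

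**Figure D4:**
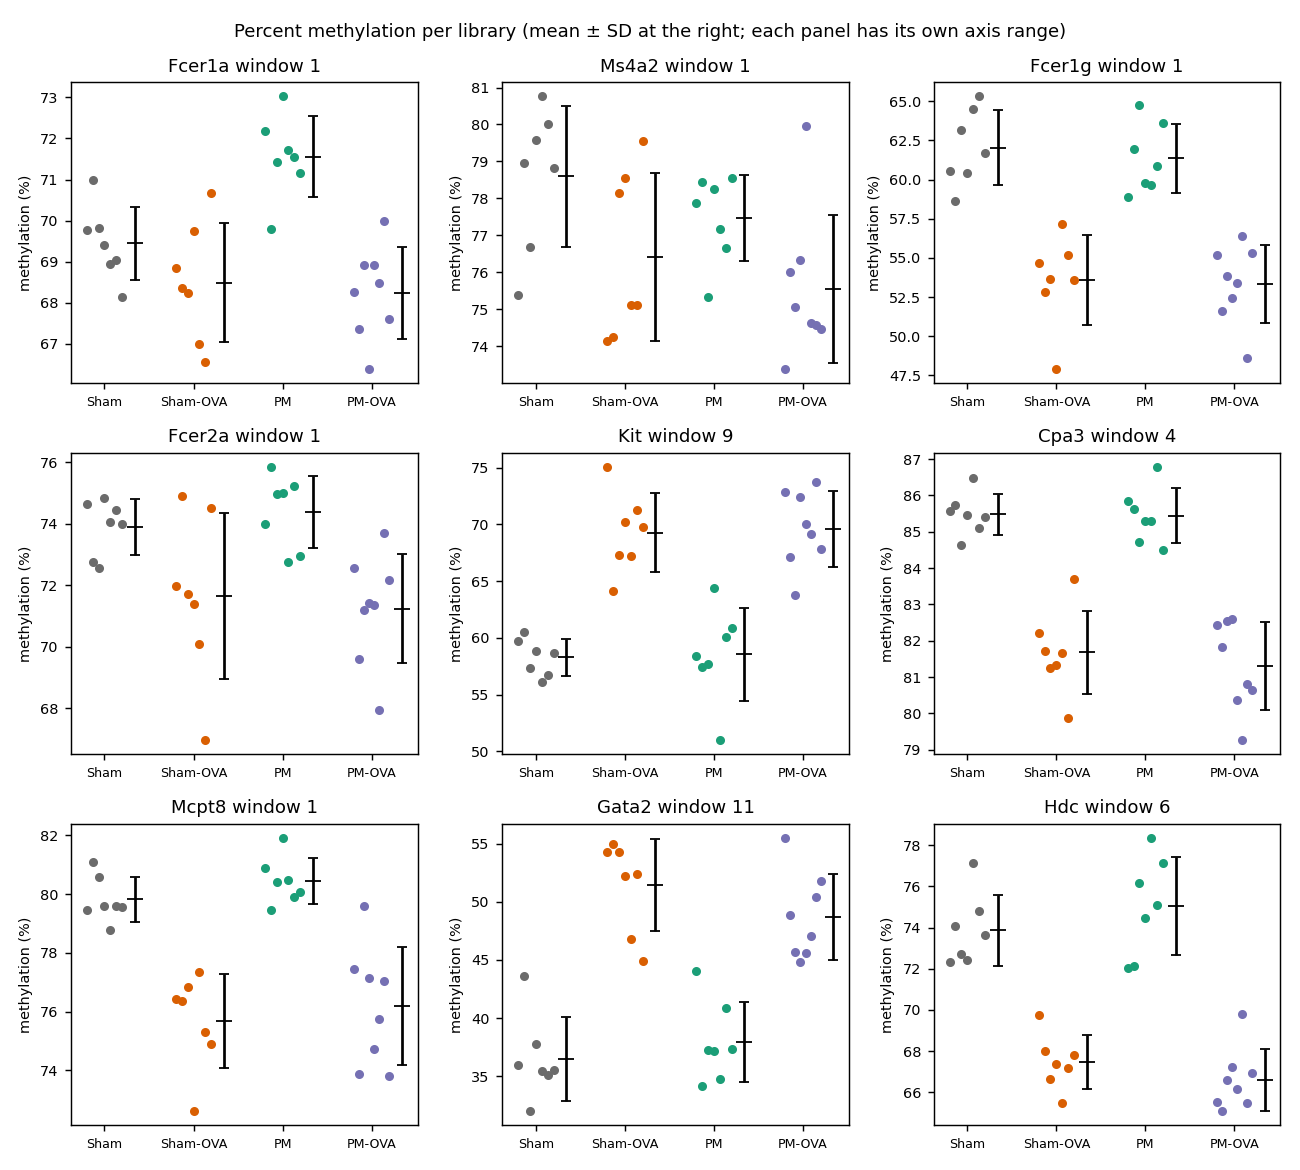
Percent methylation in each of the 29 libraries for the window of each gene with the smallest p for OVA in Sham offspring. Points are libraries, bars to their right are mean ± SD, and each panel has its own axis range. The Gata2 and Kit panels rise after OVA, the Fcer1g, Cpa3, Mcpt8 and Hdc panels fall, and the groups overlap in the Fcer1a, Ms4a2 and Fcer2a panels.

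Averaging all windows of a gene within each library gave 1 value per gene, so that windows were not counted as replicates. In Sham offspring 8 of the 9 gene means passed the test, 2 higher (background 10.4% of 38163 genes) and 6 lower (background 25.7%), and in PM offspring 1 was higher (background 6.01%) and 7 were lower (background 45.3%). Gata2 rose from 16.6% ± 0.684 (SD, n = 7) to 20.5% ± 1.11 (n = 7) in Sham and from 17.0% ± 0.907 (n = 7) to 20.1% ± 0.974 (n = 8) in PM (adjusted p = 1.66e-06 and 6.33e-05). Kit rose from 68.2% ± 0.790 to 69.98% ± 0.764 in Sham (adjusted p = 0.0103), while its 68.2% ± 1.64 and 69.5% ± 0.611 in PM and PM-OVA did not pass (adjusted p = 0.0656). This PM difference of 1.36 points depended on single libraries and on centring, as it passed without PM replicate 2 or 4, was 0.823 points without PM replicate 5 (adjusted p over all omissions from 0.0278 to 0.219), and was 2.34 points with centred libraries (adjusted p = 9.61e-07). Cpa3 fell from 82.6% ± 0.684 to 78.8% ± 1.16 in Sham and from 82.5% ± 0.586 to 78.6% ± 1.16 in PM (adjusted p = 1.41e-06 and 2.74e-07). The mean of Ms4a2 also passed, though its windows did not, with a difference of -1.67 points in each kind of offspring (adjusted p = 0.0266 and 0.0214), but with centred libraries the differences were -1.28 points in Sham and -0.686 in PM and neither passed (adjusted p = 0.0846 and 0.36). In Sham the calls of Ms4a2 and Fcer2a were each lost without some single libraries, which were Sham replicates 4 and 5 and Sham-OVA replicates 2, 5 and 6 for Ms4a2 (adjusted p up to 0.0696) and Sham replicate 2 and Sham-OVA replicates 5 and 6 for Fcer2a (up to 0.059). Fcer1a did not pass in Sham (adjusted p = 0.233) and fell in PM (adjusted p = 4.42e-05). The difference of Hdc in PM was -2.83 points (adjusted p = 1.18e-06), and -1.85 points with centred libraries (adjusted p = 6.15e-06). Without Sham replicate 1, 8 gene means again passed in Sham, with 3.89 points at Gata2, 1.85 at Kit, -3.95 at Cpa3 and -1.81 at Ms4a2.

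Maternal PM exposure by itself gave no call among the members. In the table as a whole 0 windows passed an adjusted p under 0.05 in limma for PM against Sham without OVA, for PM-OVA against Sham-OVA, or for the interaction. At an unadjusted p under 0.05 the members counted 2 of 64 without OVA (background 5.79%), 4 with OVA (background 5.96%) and 4 for the interaction (background 7.4%). The differences of the members ranged from -1.69 to 2.28 points without OVA, from -2.70 to 1.53 points with OVA, and from -4.15 to 1.53 points for the interaction. The smallest p for PM with OVA and for the interaction were both at Hdc window 3, which is 81.8% repeat sequence. It ranged from 79.1 to 81.5% in Sham (median 80.3%), from 77.2 to 80.05% in Sham-OVA (78.2%), from 79.4 to 82.1% in PM (80.8%) and from 74.9 to 78.7% in PM-OVA (75.7%). The PM-OVA libraries were the lowest of the 4 groups, overlapping Sham-OVA, with a difference of -2.10 ± 0.627 points (adjusted p = 0.805) and an interaction of -2.79 ± 0.786 points (adjusted p = 0.556). Without OVA the smallest p was at the Fcer1a window described above, and without Sham replicate 1 the members' differences there ranged from -1.91 to 2.16 points, with a lowest adjusted p of 0.835.

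Other genes of the pathway were taken from lists that hold none of the 9 members. Of 24 genes of IgE receptor signalling 23 had windows, and 117 of their 466 windows rose and 117 fell in Sham (25.1% each, where 13.3% of all windows rose and 22.3% fell). In PM 81 rose and 152 fell (17.4 and 32.6%, against 9.26 and 34.8% of all windows). The windows with the smallest p were losses, namely -14.4 points at Lat2 (an adaptor), -11.6 points at Inpp5d (an inhibitory phosphatase) and -16.0 points at Syk (the kinase that binds the gamma chain) in Sham, with adjusted p-values of 6.74e-10, 3.77e-09 and 1.17e-08. Among 28 effector and surface genes of mast cells and basophils (122 windows), 13 windows rose and 35 fell in Sham (10.7 and 28.7%) and 11 rose and 55 fell in PM (9.02 and 45.1%). By smallest p, Itga2 came first in Sham with a gain of 9.47 points. Srgn, the core protein of granule proteoglycans, came next with a difference of -13.6 points. In 14 transcription factor genes (of 15 listed, 235 windows), 51 rose and 71 fell in Sham (21.7 and 30.2%) and 37 rose and 90 fell in PM (15.7 and 38.3%). The smallest p there was at Ikzf1, a regulator of lymphoid cells, with differences of -18.8 and -17.9 points (adjusted p = 9.43e-10 and 6.74e-10). Kitl, the ligand of Kit, rose at a window from 22.3% ± 1.94 to 31.3% ± 1.95 in Sham and from 24.5% ± 1.78 to 33.1% ± 1.86 in PM (adjusted p = 1.15e-07 and 1.52e-07). In the 7 genes of that list, which also holds histamine receptors and the histamine-degrading enzyme Aoc1, 14 windows rose and 14 fell in Sham (19.2% each) and 9 rose and 22 fell in PM (12.3 and 30.1%). The PM counts moved with centring of the libraries (where 21.8% of all windows rose and 20.4% fell), to more gains than losses (166 higher) for IgE receptor signalling, whose even split in Sham became 140 higher and 104 lower, and to 16 higher and 35 lower for the effector genes, 71 and 67 for the transcription factors and 21 and 13 for the histamine and Kit ligand genes, whose Sham counts became 21 and 10. Without Sham replicate 1 the Sham counts of these lists were 110 and 120, 13 and 32, 45 and 69, and 13 and 12.

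Windows of cell type markers moved with the challenge as well. Over 88 windows of 19 leucocyte marker genes, 12 rose and 29 fell in Sham (13.6 and 33%, against 13.3 and 22.3% of all windows) and 8 rose and 36 fell in PM (9.09 and 40.9%, against 9.26 and 34.8%), and the mean of these windows lay 5.55 to 6.09 points above the mean of all windows in Sham, 4.00 to 4.74 in Sham-OVA, 5.61 to 6.08 in PM and 3.93 to 4.84 in PM-OVA. Over 159 windows of 20 epithelial, endothelial and mesenchymal marker genes, 50 rose and 26 fell in Sham (31.4 and 16.4%) and 33 rose and 37 fell in PM (20.8 and 23.3%), and their mean differed from that of all windows by -7.26 to -6.29 points in Sham, -5.47 to -5.10 in Sham-OVA, -6.83 to -6.05 in PM and -5.85 to -4.99 in PM-OVA. Challenged and unchallenged libraries did not overlap in either list. In the second list the smallest p was a loss at Pecam1, of -18.0 points in Sham and -15.9 in PM (adjusted p = 1.8e-08 and 4.08e-08). Next by p came gains at Hopx (13.2 points) and Cdh5 (9.60) in Sham, and losses at Pdgfra (-5.85) and Myh11 (-4.67) in PM. With centred libraries the counts were 17 and 28 in Sham and 15 and 33 in PM for the leucocyte list, and 60 and 23 and then 58 and 25 for the other, and without Sham replicate 1 the Sham counts were 10 and 29, and 48 and 26. The part of the cell mixture in the gains at Gata2 and Kit and in the losses at the other members was not tested.

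Across the 29 libraries, windows on other chromosomes that were among the most like Gata2 window 11 were in Map3k20 (Pearson's r = 0.942) and Rara (0.939), and those most like Hdc window 6 were in Ptpre (0.943), Magi1 (0.941) and Slc44a3 (0.939). These values describe likeness over libraries that share the same 4 groups and carry no test. The Rara window, for example, had means of 28.9% in Sham, 45.7% in Sham-OVA, 28.7% in PM and 44.0% in PM-OVA.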

How the data were processed

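The authors made enzymatic methyl-seq libraries from lung DNA with an unmethylated lambda spike-in, trimmed reads with Trim Galore, and mapped and called them on GRCm38 with DRAGEN, as the labels and methods state. Calls were then averaged over windows of equal CpG number in SeqMonk. What the authors deposited is percent methylation for each window and library, without counts or coverage, so depth is unknown here and precision rests on the number of libraries.

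Members were the windows named for the 9 genes. The members and gene lists were chosen with earlier results of these data known. Each percentage was turned into a log2 ratio (methylated over unmethylated percent, 1 point added to each), and 4 groups and 29 libraries were fitted with limma 3.58.1 (R 4.3.3) in 259167 windows with at least 3 values per group. The authors' own test used read counts, which were not analysed here. P-values were 2-sided with Benjamini-Hochberg adjustment over all tested windows, or over 38163 genes for gene means. Contrasts were OVA in each kind of offspring, PM against Sham in unchallenged and in challenged lungs, and the interaction. DMRs had group means at least 10 points apart besides an adjusted p under 0.05. Standard errors in points come from the group SDs. Values are given for each gene's start window, its smallest p in each OVA contrast and every DMR, and other windows named in the text were chosen after their values were seen. For each list, the 3 genes with the smallest p in each OVA contrast could be named. The fit was tested on simulated data.

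Windows were placed on GENCODE M21 genes, and sequences were read from the RefSeq GRCm38.p6 genome and its promoter table, in which 9 of 9 genes matched. Python 3.11.15, pandas 2.3.3, numpy 2.4.6 and matplotlib 3.10.9 were used. Alternatives were offsets of 0.1 and 5 points, the percent scale, centred libraries, complete windows, at least 2 values per group, only the contrast's groups, trend and robust moderation, a replicate block, gene values as medians or weighted by CpGs, other DMR thresholds, omission of the 2 libraries named Rel, and omission of each library. Lcp2, Zfpm1 and Ms4a1 of the lists had no window and were not analysed here. 1 of the windows found by likeness is not reported here.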

Additional observations from a re-analysis of the deposited data

Results flagged for a closer look

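Values of single libraries were compared with the rest of their group for 17 member windows and the 9 gene means in each of the 4 groups, 104 groups of libraries in all, by the gap to the nearest library over the range of the group (Dixon's test at its 95% critical value). Chance gives about 1 in 20 groups, and 5 were found. PM-OVA replicate 5 was high at Ms4a2 window 1 (79.96%, the next library at 76.3%) and in the mean of the Ms4a2 windows (68.0%, the next at 65.5%). PM-OVA replicate 6 was high at Hdc window 6 (69.8%, the next at 67.2%). PM replicate 2 was low at Gata2 window 1 (1.99%, the next at 3.35%), and Sham replicate 7 was low in the mean of the Mcpt8 windows (80.05%, the next at 81.4%). The cause was not tested.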

How the results depend on the processing

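The count of member windows past the adjusted threshold was 31 for OVA in Sham and 37 for OVA in PM, and lay between 27 and 32 and between 35 and 39 when single libraries were left out. Of these calls, 26 of 31 and 34 of 37 held in each of the 29 fits without 1 library. The DMR count of 2 in each was 14 in Sham (10 higher, background 3.35%, and 4 lower, background 2.6%) and 13 in PM (9 higher, background 2.06%, and 4 lower, background 3.83%) with a minimum difference of 5 points, and 1 and 0 with an adjusted p under 1e-06 (background 0.173% higher in Sham and 0.0884% in PM). For OVA in PM it was 1 without the 2 libraries named Rel and ranged from 1 to 3 without single libraries, with 1 left without PM replicate 5 or PM-OVA replicate 1 and 3 without PM replicate 4, and for OVA in Sham it ranged from 2 to 3. Of the 31 and 37 called member windows, 0 changed direction under any of 40 alternatives, nor did the Gm38708 window. On the percent scale Kit window 1 lost its calls. Hdc window 1 in PM, not called, was 0.112 points without the libraries named Rel and 0.543 points with centred libraries. The replicate numbers of the sample titles paired nothing that the labels state, and libraries of different groups with the same title number did not all deviate together (42 pairs, r from -0.0705 to 0.13, median 0.0174). The library names carry another number in 8 libraries and none in the 2 named Rel, and by those numbers r was -0.0444 to 0.13 (36 pairs, median 0.0246). With the title number as a block (replicate block), 31 windows passed for OVA in Sham and 38 for OVA in PM, with 2 DMRs in each. With the library-name number as a block and without the libraries named Rel, a choice made after seeing the data, 34 and 35 passed, with 4 DMRs in Sham and 1 in PM. Ms4a2 window 1 (-2.65 points, adjusted p = 0.0385) and Fcer2a window 1 (-2.61 points, adjusted p = 0.0268) then passed in Sham. Maternal contrasts and the interaction gave 0 calls under all of these alternatives. The table has no read counts, so the counting error behind small differences could not be given.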
